A study of Mus musculus with 7 samples.

Results

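The genes described here belong to the interferon response and to the major histocompatibility complex (MHC) of the mouse. They were taken by name, as all probes whose platform gene symbol begins with H2-, Ifi or Oas, or with Irf or Stat and a digit, together with B2m, Tap1, Tap2, Tapbp, Rsad2, Isg15, Usp18, Mx1, Mx2, Bst2 and Cd74. This gave 145 probes for 96 genes, of 25697 probes on the array. The rule uses names alone, though it was written with earlier results of these data known. RNA came from the brains of 3 males homozygous for a Duf1220 knockout allele (knockout, KO) and of 4 wild-type males (WT), all of strain C57BL/6J and 21 weeks old. Each brain was read on 1 Illumina BeadArray, on which labelled cRNA binds to probes carried by beads and gives a light intensity. In the mouse the DUF1220 domain is encoded by Pde4dip, the gene of the protein myomegalin. By the series title such mice move more and breed less well, and the comparison looks for transcripts whose level in brain depends on the domain. The labels state neither the brain region nor how the allele was made, and they do not say whether the wild-type mice were littermates. The 7 mice have separate identities, so every array counted as 1 replicate, and p-values measure the spread between these 7 brains.

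Type I interferons bind a receptor whose JAK kinases phosphorylate STAT factors, among them STAT2, which joins IRF9 in a complex on interferon-stimulated response elements in the promoters of antiviral genes. Interferon gamma acts through gamma-activated sites, and raises MHC class I, the peptide-loading machinery and, through CIITA, MHC class II. In the healthy brain these genes are mostly expressed at low levels, with microglia and endothelial cells among their main sources.

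Of the 145 probes, 60 were above an intensity of 16 on at least 3 of the 7 arrays and were tested, 41.4% of them, against 49.9% of all probes. They stand for 42 genes. These are the brighter probes and not all members, since 85 probes and 54 genes were left untested and 78 probes were above 16 on no array. Only 1 of the 60, a second probe of Irf9, was above 16 in 1 group alone. Values below 16 were set to 16 before log2 was taken, and all differences below are knockout minus wild-type means on that floored log2 scale, which understates differences of dim probes. Intensities of different probes are not comparable as amounts of RNA, because probes bind with different strength.

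The brightest Pde4dip probe read 1233, 1442 and 1498 in the knockout brains, against 2228, 2502, 2198 and 2157 in the wild-type brains, a difference of -0.71 (SE 0.15), and its adjusted p was 0.754. The groups did not overlap at this probe. The other Pde4dip probes differed by 0.01 and -0.35, with overlapping groups, and where these probes lie with respect to the deletion was not analysed. Wild-type arrays 2 and 3 stood apart from the rest, with mean correlations across probes of 0.932 and 0.970 with the other arrays, against 0.976 to 0.981 for the remaining 5. Array 2 was the lowest or highest of the 7 in 35 of the 60 tested member probes, or 58.3%, against 66.1% of all tested probes. The values of several members without this array stand beside their results. Of 7 neuron markers 5 were measured, with list sums of 18077 to 18766 in knockout and 18151 to 22063 in wild type, while Snap25 and Nefl read near 0 on every array. The vesicular glutamate transporter gene Slc17a7 of this list read 3454, 3432 and 4099 in knockout, against 6010, 4042, 6913 and 6130 in wild type, a difference of -0.63 (SE 0.21, limma adjusted p = 0.754), and its groups overlapped.

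No member differed between knockout and wild-type brain past the threshold of 0.05 (limma, Benjamini-Hochberg over all 12833 tested probes), and neither did any other probe, so the background share was 0.0%. At an unadjusted p under 0.05 the background in either direction was 4.2%, and for groups without overlap it was 7.39%. The lowest adjusted p over all probes was 0.754. By sign the members were split evenly, with 30 probes higher and 30 lower in knockout, and 22 genes higher and 20 lower when each gene was read by its brightest probe. The median difference over the 42 genes was 0.00282, against 0.0204 over all tested probes. The median size of a difference was 0.16 for the member probes and 0.19 for all probes, with median standard errors of 0.22 and 0.21.

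Of the members, 3 probes had groups that did not overlap, all higher in knockout, which is 5.0% of the 60 against a background of 3.44% in that direction. In the other direction the count was 0, against a background of 3.94%. At an unadjusted p under 0.05 there were 2 member probes higher in knockout, or 3.33%, against a background of 2.21%, and 0 lower, against 1.99%. With 60 probes these shares are near the background. The 3 separated probes belong to Irf3, with 2 of them, and to Stat4.

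**Figure D1:**
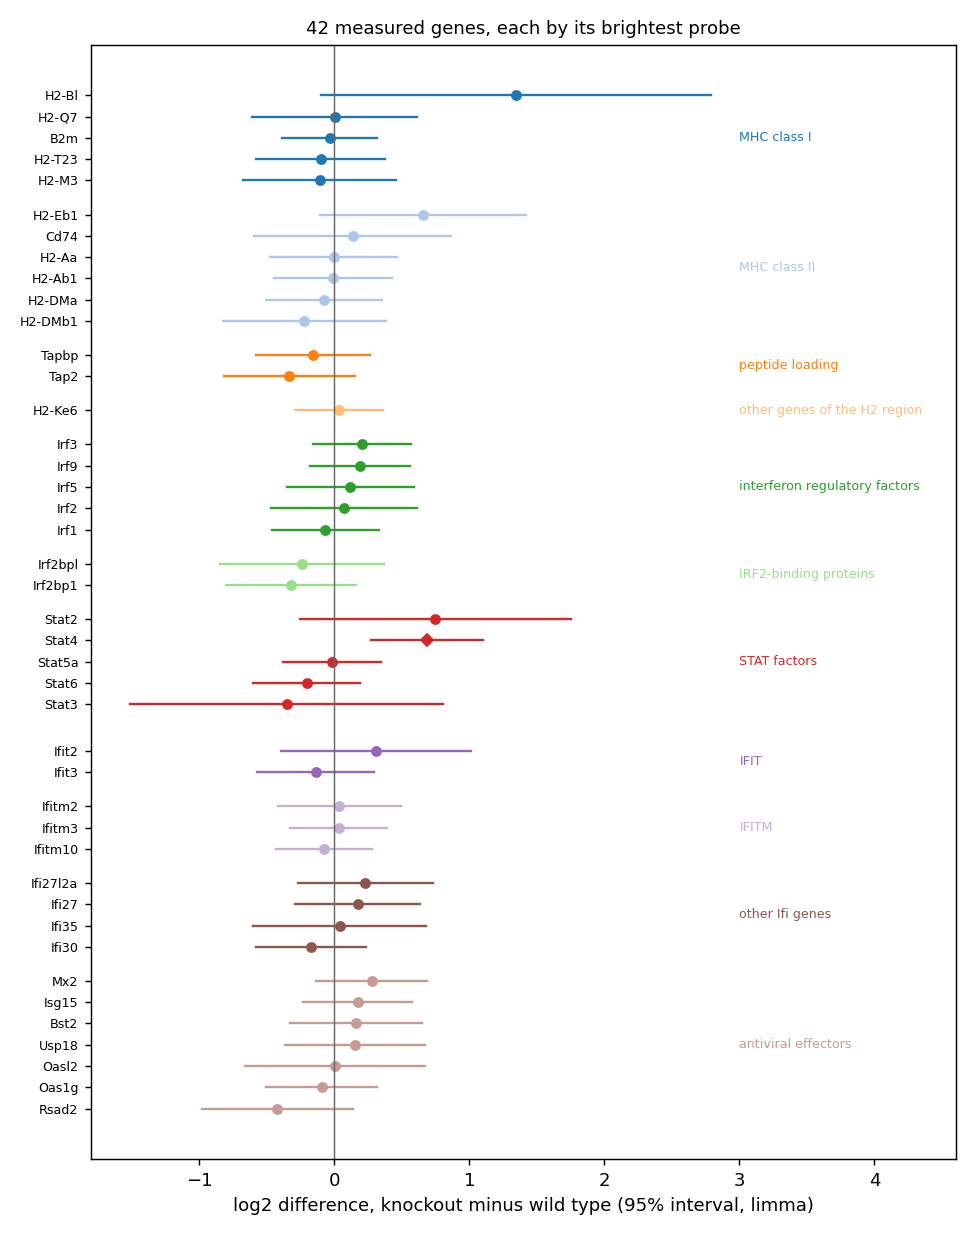
Difference of knockout minus wild type (log2, horizontal axis) for each of the 42 measured genes, read by its brightest probe and grouped by class, with 95% intervals from limma as bars. Most intervals span 0 and the points lie on both sides, 22 above 0 and 20 below, and the largest is H2-Bl at 1.35. Stat4 at 0.69, drawn as a diamond because its groups did not overlap, is the gene whose interval, 0.28 to 1.10, lies wholly above 0.

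Irf3 encodes the factor that sensors of viral nucleic acid activate to switch on the interferon beta gene. It was read by 3 tested probes, and the knockout mean was higher at each. Probe ILMN_1229320 read 105, 76.5 and 73.6 in knockout, against 42.1, 11.0, 45.7 and 61.6 in wild type. All 3 knockout arrays were above all 4 wild-type arrays, and wild-type array 2 was the lowest, below the floor. The means were 85.0 ± 17.4 (SD, n = 3) in knockout and 40.1 ± 21.1 (SD, n = 4) in wild type, with a log2 difference of 1.18 (SE 0.42, 95% interval 0.23 to 2.13, limma unadjusted p = 0.0211, adjusted p = 0.754). Probe ILMN_1224505 read 111, 98.8 and 100.5 in knockout, against 76.1, 52.5, 91.6 and 90.4 in wild type. The groups did not overlap here either, though wild-type arrays 3 and 4 came close to the knockout values. This difference was 0.44 (SE 0.22, 95% interval -0.05 to 0.94, limma adjusted p = 0.754). The brightest probe, ILMN_2664319, read 908, 822 and 732 in knockout, against 635, 828, 674 and 706 in wild type. Here wild-type array 2 was the highest wild-type array and lay within the knockout range, so the groups overlapped, with a difference of 0.21 (SE 0.16, 95% interval -0.15 to 0.57). Array 2 was thus the lowest wild-type array at 2 Irf3 probes and the highest at the brightest one. Without it the differences were 0.77, 0.27 and 0.28 in the same order of probes. The probes share 1 gene and the same 7 brains, so they are not independent readings.

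Irf3 lies on chromosome 7, and tested genes on both sides of it also had separated groups. The nearest 5 tested genes on each side, which lie up to 10 protein-coding genes away, had 15 tested probes, 8 higher and 7 lower in knockout. Groups were separated at 1 probe higher, for the carnitine palmitoyltransferase gene Cpt1c at 0.39, and at 5 probes lower. Those 5 read the nitric oxide synthase-interacting protein gene Nosip, at -0.91, -0.89 and -0.64, and the Mediator subunit gene Med25, at -0.68 and -0.70. Another tested Med25 probe gave -0.39, with overlapping groups. The background shares for separation were 3.44% higher and 3.94% lower. They are counted by probe, and probes of the same gene are not independent readings. Irf3 and Bcl2l12, an apoptosis-related gene, start head to head, with promoter windows of 300 bases that overlap by 168 bases on opposite strands. Neither of the 2 Bcl2l12 probes was bright enough to test. Whether the Irf3 values are tied to this neighbourhood was not tested.

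Stat4, which passes on interleukin-12 signals in lymphocytes and other cells, had the smallest unadjusted p of all members. Only 1 of its 3 probes was tested, and the others, ILMN_2614970 and ILMN_2792599, were above 16 on no array. The tested probe was dim and read 30.1, 32.8 and 31.6 in knockout, against 19.6, 3.22, 18.3 and 25.3 in wild type. The knockout arrays lay close together and above every wild-type array, and wild-type array 2 was below the floor. Means were 31.5 ± 1.33 (SD, n = 3) in knockout and 16.6 ± 9.44 (SD, n = 4) in wild type. The floored log2 difference was 0.69 (SE 0.18, 95% interval 0.28 to 1.10), a 1.61-fold higher level, with an limma unadjusted p of 0.00467 and an adjusted p of 0.754. With array weights, whose estimation stopped before convergence, it was 0.66 at a limma adjusted p of 0.0443, where 28 probes in all passed. Wild-type array 1 had a weight of 6.71, against 0.10, 0.34 and 0.86 for wild-type arrays 2 to 4, so it dominated the wild-type side. The knockout weights were 1.557, 2.525 and 1.265. At a floor of 32, above nearly all of the Stat4 values, the difference was 0.011. Markers of lymphocytes were at or near the floor. Of the 7 lymphocyte marker genes on the array 0 were tested, with sums of 20.6 to 33.5 in knockout and 17.3 to 33.8 in wild type, and the highest reading was 29.9, for Cd3e on wild-type array 2.

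Stat2, a subunit of the type I interferon complex that holds IRF9, read 113, 105 and 90.3 in knockout, against 82.9, 24.7, 63.7 and 105 in wild type. Wild-type arrays 2 and 3 were low, and array 4 lay within the knockout range. The difference was 0.75 (SE 0.44, 95% interval -0.25 to 1.75, limma adjusted p = 0.754), and it was 0.32 without wild-type array 2.

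Stat3, the main STAT of interleukin-6 signalling and of reactive astrocytes, gave probes of opposite sign. Probe ILMN_2698046 read 159.6, 159.9 and 261 in knockout, against 176, 641, 245 and 121 in wild type, a difference of -0.35 (SE 0.51, limma adjusted p = 0.819). Wild-type array 2 was far above all others, and without it the difference was 0.12. Probe ILMN_2589790 gave -0.22 (SE 0.38), with 349 on wild-type array 2, and ILMN_3096144 gave 0.18 (SE 0.25), with overlapping groups at both. Without wild-type array 2 these were 0.066 and 0.093. Stat6, the interleukin-4 signal transducer, differed by -0.20 and Stat5a, which serves many cytokine receptors, by -0.02, both close to the floor on all arrays. Stat5b was not bright enough to test. Over the 5 measured STAT genes 2 were higher and 3 lower, with a median of -0.02.

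**Figure D2:**
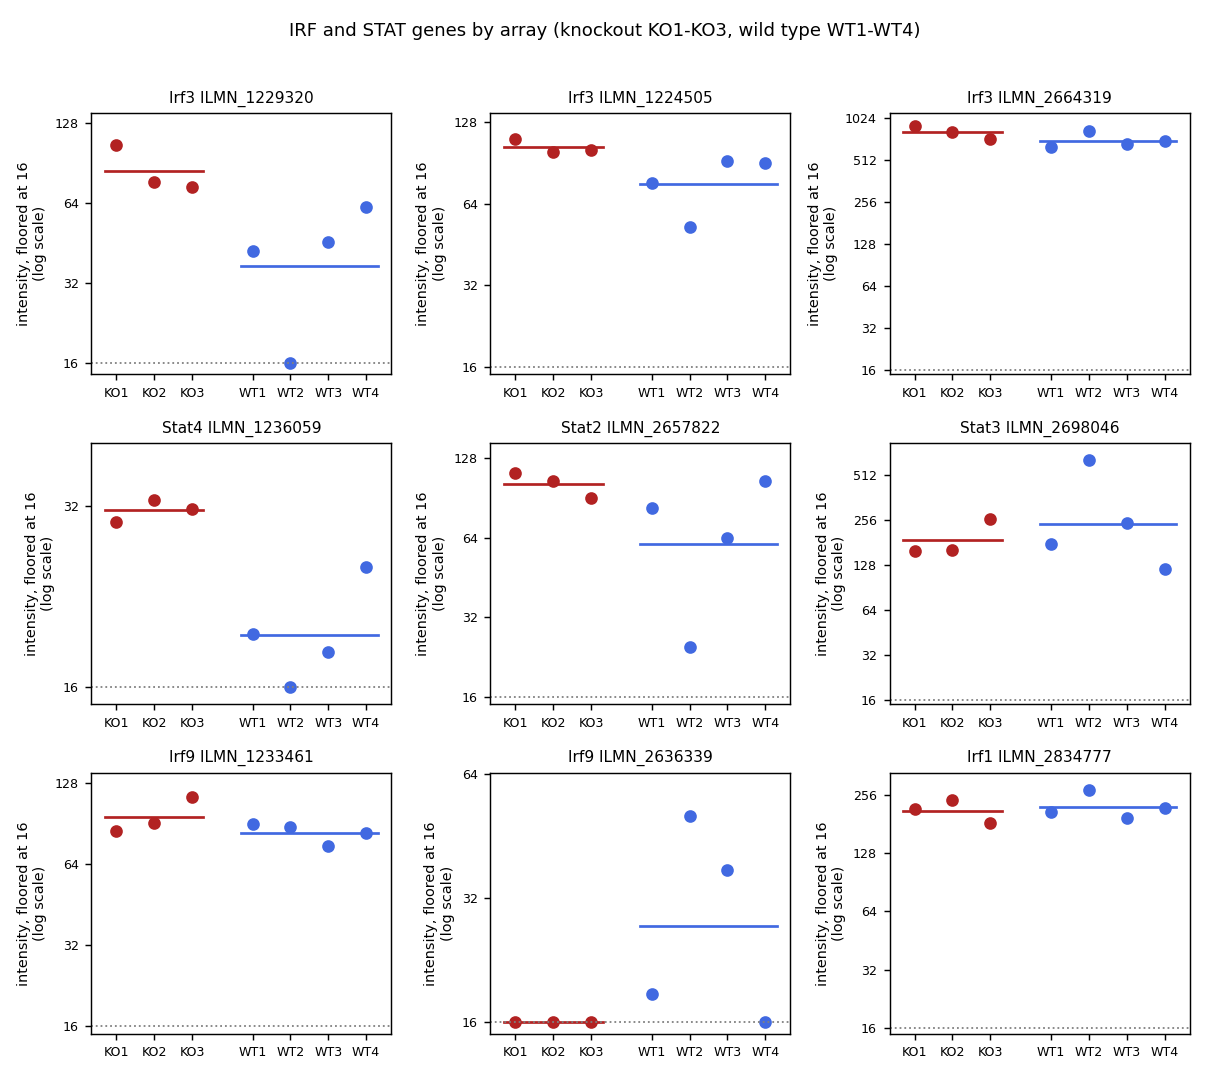
Intensity (log scale, floored at 16, dotted line) on each array for probes of IRF and STAT genes, with knockout arrays KO1 to KO3 on the left of each panel and wild-type arrays WT1 to WT4 on the right, and bars at the mean of the floored log2 values. Knockout points lie above all wild-type points for 2 Irf3 probes and for Stat4, while WT2 is the lowest for those 3 probes and the highest, at 641, for a Stat3 probe.

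Irf2, a repressor that competes with IRF1 for its sites, read 692, 941 and 844 in knockout, against 695, 1114, 579.9 and 818 in wild type. The wild-type arrays spanned the whole knockout range, and the difference was 0.07 (SE 0.24, limma adjusted p = 0.931), or 0.25 without wild-type array 2. Irf1, an activator induced by interferon gamma, gave -0.07 (SE 0.17) at its brighter probe, with 215, 239.6 and 183 in knockout against 209, 270.1, 193 and 219 in wild type. Its other probe gave 0.17 (SE 0.27), and the groups overlapped at both. Without wild-type array 2 both signs turned, to 0.031 and -0.0745 in that order.

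Irf9, the DNA-binding partner of STAT2, also gave opposite signs. Probe ILMN_1233461 read 84.6, 91.0 and 114 in knockout, against 90.2, 88.1, 74.9 and 83.2 in wild type, a difference of 0.19 (SE 0.16). Probe ILMN_2636339 read 9.94, 13.3 and 9.36 in knockout, all below the floor, against 18.7, 50.7, 37.5 and 12.95 in wild type. This probe passed the filter through wild-type arrays alone, so it could only come out lower in knockout, and its sign carries no weight. The floored values gave a 1.72-fold lower level in knockout. Wild-type array 4 was below the floor as well, so the groups overlapped (limma adjusted p = 0.754). Without wild-type array 1, array 2 or array 3 this probe was above 16 on too few arrays to be tested. Irf5, which acts downstream of Toll-like receptors, was near the floor and differed by 0.12. Irf4, Irf7 and Irf8 were not tested, among them the interferon-amplifying factor Irf7 with a highest reading of 9.04. The 5 measured IRF genes had a median of 0.12, with 4 higher and 1 lower.

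The IRF2-binding protein genes, which encode transcriptional co-regulators, were brighter. Irf2bp1 read 906, 656 and 786 in knockout, against 793, 1274, 1041 and 834 in wild type. The knockout arrays lay mostly below the wild-type arrays but overlapped them, and the difference was -0.32 (SE 0.21, limma adjusted p = 0.754), or -0.19 without wild-type array 2. Irf2bpl read 1031, 1161 and 1629 in knockout and 1279.6, 2207, 1519 and 1101 in wild type, a difference of -0.24 (SE 0.27). Array 2 was again the highest, and without it the difference was -0.045. Its dimmer probe gave -0.49 (SE 0.27), and -0.24 without wild-type array 2.

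Promoter sequences from RefSeq (build GRCm38.p6, 250 bases before to 50 after a gene's start) were matched to 75 of the 96 member genes, with 87 windows. The core of the interferon-stimulated response element was searched as GAAA, any 2 bases and GAAA again, and the gamma-activated site as TTCNNNGAA, on both strands, with overlapping matches counted. The first was found in 19 of the 87 member windows, or 21.8%, against 3.44% of all 32851 windows, and the second in 14, or 16.1%, against 8.3%. The windows below are those of the genes with the smallest unadjusted p, of Stat2, and of 3 bright or classical interferon targets, with matches to the first motif in capitals. They are Irf3 (chr7:44997398-44997697, plus strand), Stat4 (chr1:52007990-52008289, plus), Stat2 (chr10:128270248-128270547, plus), Ifit3 (chr19:34583279-34583578, plus), Isg15 (chr4:156200769-156201068, minus) and B2m (chr2:122147437-122147736, plus). The Irf3 window held no match to either motif, the Isg15 window 3 overlapping matches and the Ifit3 window 2. Another annotated start of Stat4 (chr1:51986898-51987197) had none.
Irf3: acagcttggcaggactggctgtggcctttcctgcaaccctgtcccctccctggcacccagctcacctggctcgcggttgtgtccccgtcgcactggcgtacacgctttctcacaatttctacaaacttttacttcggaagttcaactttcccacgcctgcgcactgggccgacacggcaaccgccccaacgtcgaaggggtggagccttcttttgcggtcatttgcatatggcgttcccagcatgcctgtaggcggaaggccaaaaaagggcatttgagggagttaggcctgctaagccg
Stat4: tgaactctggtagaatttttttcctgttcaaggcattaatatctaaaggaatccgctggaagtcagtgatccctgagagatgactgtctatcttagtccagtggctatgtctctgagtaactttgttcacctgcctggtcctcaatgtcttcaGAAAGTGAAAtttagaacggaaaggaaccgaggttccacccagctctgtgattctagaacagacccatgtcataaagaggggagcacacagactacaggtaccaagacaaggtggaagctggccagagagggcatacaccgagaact
Stat2: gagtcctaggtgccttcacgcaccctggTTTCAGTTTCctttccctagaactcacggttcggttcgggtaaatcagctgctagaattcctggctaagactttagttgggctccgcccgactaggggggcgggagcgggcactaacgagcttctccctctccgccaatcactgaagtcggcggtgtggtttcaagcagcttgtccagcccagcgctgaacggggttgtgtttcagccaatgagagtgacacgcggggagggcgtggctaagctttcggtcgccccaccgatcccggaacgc
Ifit3: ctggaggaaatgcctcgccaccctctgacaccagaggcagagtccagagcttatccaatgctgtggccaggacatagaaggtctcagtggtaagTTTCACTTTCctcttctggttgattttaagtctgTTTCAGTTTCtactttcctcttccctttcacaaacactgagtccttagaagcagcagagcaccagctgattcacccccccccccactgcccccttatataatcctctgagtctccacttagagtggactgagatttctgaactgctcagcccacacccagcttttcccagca
Isg15: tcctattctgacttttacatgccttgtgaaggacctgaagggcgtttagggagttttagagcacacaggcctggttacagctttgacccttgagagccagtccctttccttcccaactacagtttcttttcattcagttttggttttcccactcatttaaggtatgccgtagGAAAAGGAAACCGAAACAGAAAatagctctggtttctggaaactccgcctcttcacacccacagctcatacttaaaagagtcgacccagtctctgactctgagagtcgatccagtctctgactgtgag
B2m: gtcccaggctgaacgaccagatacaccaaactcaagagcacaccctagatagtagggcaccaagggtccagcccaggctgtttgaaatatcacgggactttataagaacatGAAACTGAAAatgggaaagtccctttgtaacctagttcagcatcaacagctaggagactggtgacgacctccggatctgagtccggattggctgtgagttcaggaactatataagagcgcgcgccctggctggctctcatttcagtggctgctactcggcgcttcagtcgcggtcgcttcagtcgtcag

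Genes with and without these letters were split by sign in the knockout. Of the 12 measured genes with the response element core, 7 were higher and 5 lower, with a median of 0.04 and a range from -0.42 for Rsad2 to 0.75 for Stat2. Of the 22 measured genes without it in their windows, 9 were higher and 13 lower, with a median of -0.04. With the gamma-activated site 5 of 8 were higher (median 0.04), and without it 11 of 26 (median -0.03). In each set 0 genes passed the threshold, as over the whole array.

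Rsad2, Isg15 and the IFIT genes are among the genes that interferon induces most strongly. Rsad2, whose product viperin makes a chain-terminating nucleotide, read 86.2, 78.3 and 73.8 in knockout, against 101, 167, 90.8 and 82.6 in wild type. The knockout arrays were mostly below the wild-type arrays, with 1 overlap, and array 2 was the highest. The difference was -0.42 (SE 0.25, 95% interval -0.98 to 0.14, limma adjusted p = 0.754), and it was -0.20 without wild-type array 2. Isg15, a ubiquitin-like modifier, read 47.0, 54.1 and 52.9 in knockout, against 57.9, 46.5, 40.2 and 39.4 in wild type. Here wild-type array 1 was above every knockout array, and the difference was 0.17 (SE 0.18, limma adjusted p = 0.766).

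Ifit3, a member of a family that binds viral RNA, was lower by mean at all 3 probes. The brightest read 321, 332 and 352 in knockout, against 489, 379, 329 and 302 in wild type, a difference of -0.14 (SE 0.19). Wild-type arrays lay on both sides of the knockout range. The dimmer probes gave -0.54 (SE 0.42) and -0.49 (SE 0.44), and on both wild-type array 2 was highest, at 73.9 and 82.2. Without that array the first of these was -0.17. Ifit2 had the opposite sign, with 56.9, 83.7 and 79.4 in knockout against 75.4, 49.6, 36.3 and 85.6 in wild type, a difference of 0.31 (SE 0.31), and 0.43 (SE 0.40) at its other probe. Without wild-type array 3 the first was 0.08. Ifit1 was not above 16 on any array.

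Usp18, the protease that removes ISG15 and dampens receptor signalling, read 50.5, 68.1 and 50.1 in knockout, against 72.0, 43.3, 42.7 and 46.6 in wild type. Wild-type array 1 was the highest of all, and the difference was 0.16 (SE 0.23). Its dimmer probe gave -0.24 (SE 0.24). Oasl2, of the oligoadenylate synthetase family, read 54.1, 83.1 and 73.4 in knockout, against 95.3, 92.1, 48.8 and 52.6 in wild type. The wild-type arrays formed a high and a low pair around the knockout values, and the difference was 0.00 (SE 0.29, limma adjusted p = 0.998). Bst2, which tethers budding virus to the cell, differed by 0.16, Mx2, an antiviral GTPase, by 0.28 and Oas1g by -0.09, all with overlapping groups near the floor. The other 11 antiviral genes, Mx1 and 10 of the Oas family, were not tested.

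The IFITM genes, whose products block viral fusion, were measured with little spread. Ifitm3 read 571, 597 and 621 in knockout, against 622, 502, 682 and 540.4 in wild type, so the wild-type arrays lay on both sides of the knockout range. The means were 596 ± 25.3 (SD, n = 3) in knockout and 587 ± 81.0 (SD, n = 4) in wild type, a difference of 0.03 (SE 0.16, 95% interval -0.33 to 0.39). Ifitm2 differed by 0.04 (SE 0.20) and Ifitm10 by -0.08 (SE 0.16). Ifi27, an interferon-induced gene of high basal level in brain, read 1466, 1506 and 1267 in knockout, against 1428, 889, 1414 and 1353 in wild type. Wild-type array 2 was far below the rest, and the difference was 0.17 (SE 0.20, limma adjusted p = 0.785), with 0.01 without that array. The remaining measured Ifi genes were Ifi27l2a at 0.23 (SE 0.22), Ifi35 at 0.04 and Ifi30, a lysosomal thiol reductase of antigen processing, at -0.17, all with overlapping groups. None of the 5 genes of the Ifi200 family, sensors and regulators that bind DNA, was above 16 on any array, and their 9 probes read -5.98 to 9.26 after background subtraction.

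**Figure D3:**
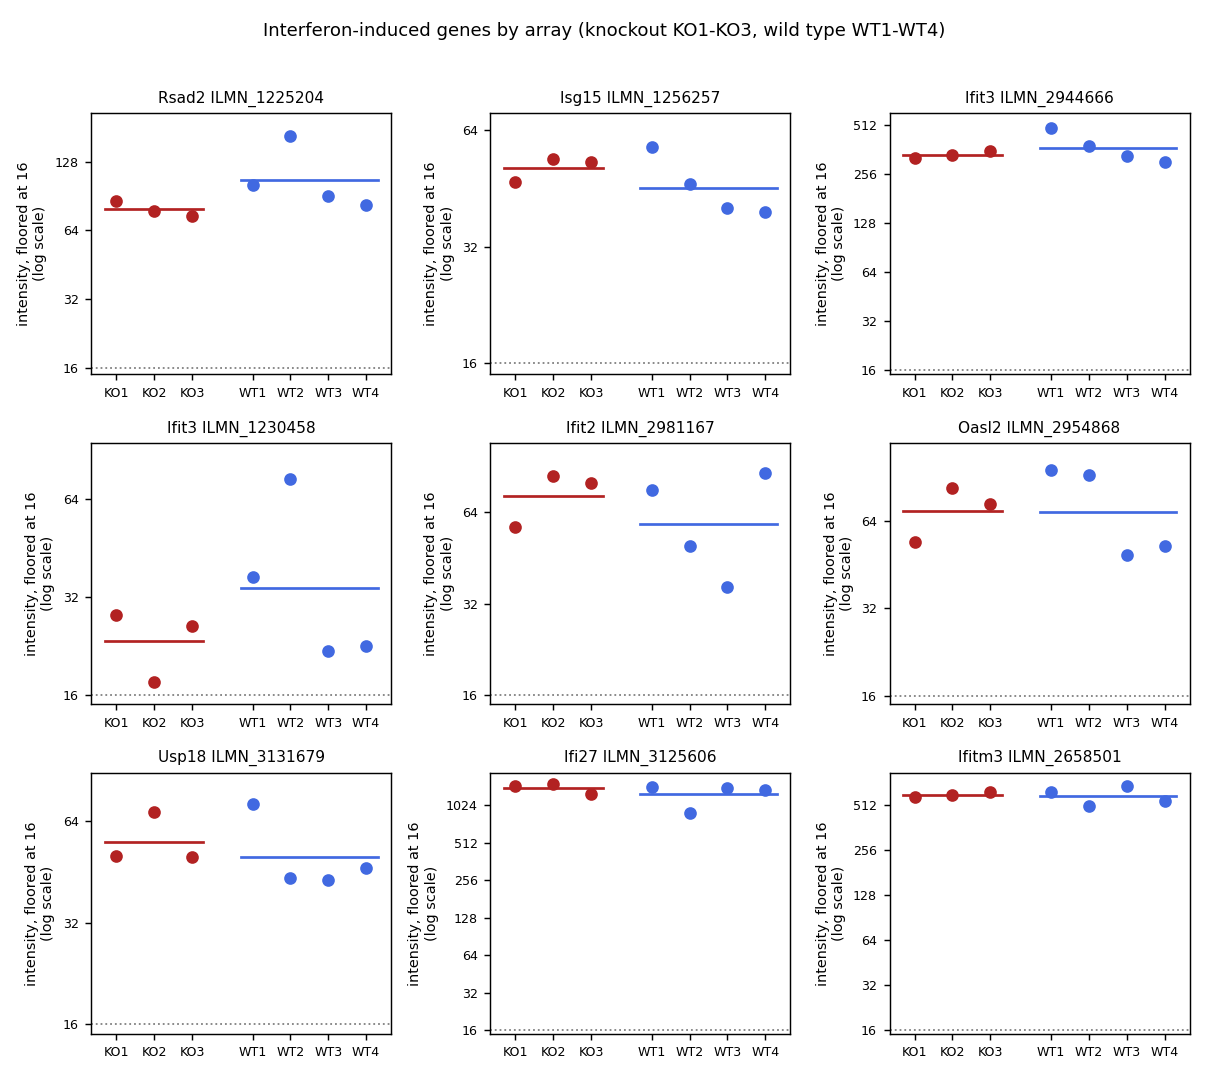
Intensity (log scale, floored at 16, dotted line) on each array for probes of interferon-induced genes, with knockout arrays KO1 to KO3 on the left of each panel and wild-type arrays WT1 to WT4 on the right, and bars at the mean of the floored log2 values. The groups overlap in every panel, and WT2 is the highest for Rsad2 at 167 and the lowest for Ifi27 at 889.

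MHC class I presents peptides from inside the cell to CD8 T cells and, on neurons, takes part in the pruning of synapses. Its shared light chain, B2m, was among the brightest members. It read 2007, 2385 and 2416 in knockout, against 2687, 2166, 2262 and 2180.3 in wild type. Wild-type array 1 was the highest, and the groups overlapped. The means were 2269 ± 228 (SD, n = 3) in knockout and 2324 ± 246 (SD, n = 4) in wild type, a difference of -0.03 (SE 0.15, 95% interval -0.39 to 0.32, limma adjusted p = 0.952). A second probe gave -0.06, and the remaining one read near 0 on every array.

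Of the class I heavy chains, 20 of 24 genes were not tested. Among these were the classical H2-K1 and H2-D1, whose highest readings were 13.8 and 15.98, both in wild type. H2 class I genes are near-identical copies of each other and vary between strains, so a probe may miss its gene or bind its neighbours, and the values of single genes are uncertain. In the bulk tissue, fewer cells of a type and less RNA per cell cannot be told apart.

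H2-T23, which encodes the non-classical molecule Qa-1, read 198, 209 and 127 in knockout, against 197, 165, 215 and 173 in wild type, with a difference of -0.10 (SE 0.21). The groups overlapped, and the dimmer probe gave 0.06 (SE 0.29). H2-Bl, a class I gene first named from the blastocyst, had the largest difference of all members. It read 46.5, 199 and 23.2 in knockout, against 24.1, 1.73, 24.8 and 32.1 in wild type. Knockout array 2 alone was far above the others and knockout array 3 lay within the wild-type range. The difference was 1.35 (SE 0.63, 95% interval -0.09 to 2.79, limma adjusted p = 0.754), and 0.48 without knockout array 2. H2-M3, which presents formylated bacterial peptides, differed by -0.11 (SE 0.25) and H2-Q7, which encodes Qa-2, by 0.00 (SE 0.27). The median over the 5 measured class I genes was -0.03. H2-Ke6, named for its place in the complex, encodes a hydroxysteroid dehydrogenase and differed by 0.04 (SE 0.14), at 1254, 1220.0 and 1034 in knockout against 1102, 1097, 1165 and 1186 in wild type.

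The peptide-loading genes Tap2, a subunit of the transporter that brings peptides into the endoplasmic reticulum, and Tapbp, which encodes tapasin, both had lower means in knockout. Tap2 read 129.7, 111 and 101 in knockout, against 130.1, 166, 179.9 and 107 in wild type. Wild-type arrays 2 and 3 were the highest, array 1 lay just above the highest knockout array, and array 4 lay within the knockout range. The difference was -0.33 (SE 0.21, limma adjusted p = 0.754). Without wild-type arrays 2 and 3 the median of Tap2 and Tapbp was 0.02, against -0.24 with all arrays. Tapbp, near the floor, differed by -0.16 (SE 0.19). Tap1, the partner of Tap2, read at most 5.63.

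MHC class II presents peptides taken up from outside the cell and in brain is carried mainly by some microglia, border macrophages and dendritic cells. Its invariant chain, Cd74, read 100.001, 103 and 95.5 in knockout, against 102, 48.3, 138 and 98.8 in wild type. The knockout values sat between a low wild-type array 2 and a high wild-type array 3. The means were 99.5 ± 3.75 (SD, n = 3) in knockout and 96.6 ± 36.8 (SD, n = 4) in wild type, a difference of 0.14 (SE 0.32, 95% interval -0.59 to 0.87, limma adjusted p = 0.894), and without array 2 it was -0.16. H2-DMa, part of the exchange factor that loads peptide, had the same order, with 232, 197 and 217 in knockout against 251, 175, 278 and 217 in wild type. Its difference was -0.08 (SE 0.19), and -0.20 without array 2. H2-Ab1, a chain of the classical I-A molecule, was read by 4 probes with differences from -0.12 to -0.00, and H2-Aa, its partner, differed by -0.01.

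H2-Eb1, a chain of the I-E molecule, had the largest class II difference. It read 43.0, 45.1 and 42.0 in knockout, against 22.4, 12.1, 47.0 and 33.9 in wild type. The knockout values were close together, and wild-type array 3 was above them all. The difference was 0.66 (SE 0.33, 95% interval -0.11 to 1.42, limma adjusted p = 0.754), and 0.40 without wild-type array 2. H2-Ea, the other chain of I-E, was above 16 on no array, with a highest reading of 2.50, and was not tested. The H2-Eb1 values are thus no measure of the I-E molecule. H2-DMb1 differed by -0.22 (SE 0.26), and the median over the 6 measured class II genes was -0.01.

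The sum over 8 microglia markers, carried mostly by the complement genes C1qb and C1qc, was 1923, 1922 and 1774 in knockout, against 1852, 1253, 2231 and 1889 in wild type, so array 2 was lowest and array 3 highest, as for Cd74 and H2-DMa. Gene by gene, array 2 was the lowest wild-type array for C1qa, C1qb, C1qc and Trem2. The other markers did not follow this order. The fractalkine receptor gene Cx3cr1 was highest on array 2, at 254 against 166 on array 3. Tmem119 and the brightest Aif1 probe were lowest in wild type on array 4, at 97.9 and 113. P2ry12 read 15.9 on both array 2 and array 3. Of the 8, 4 were higher and 4 lower in knockout, with a median of 0.01. The microglial calcium-binding protein gene Aif1 (IBA1) read 109, 104 and 90.7 in knockout, against 147, 135, 225 and 113 in wild type, without overlap and with a difference of -0.57 (SE 0.24, limma adjusted p = 0.754). Its other tested probe gave -0.19 (SE 0.14), with overlapping groups. None of 6 dendritic cell markers was tested. Sums over the border macrophage markers were 110.2 to 153 in knockout and 82.7 to 138 in wild type, with 3 of 7 tested. The part of these cells in the member values was not tested.

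**Figure D4:**
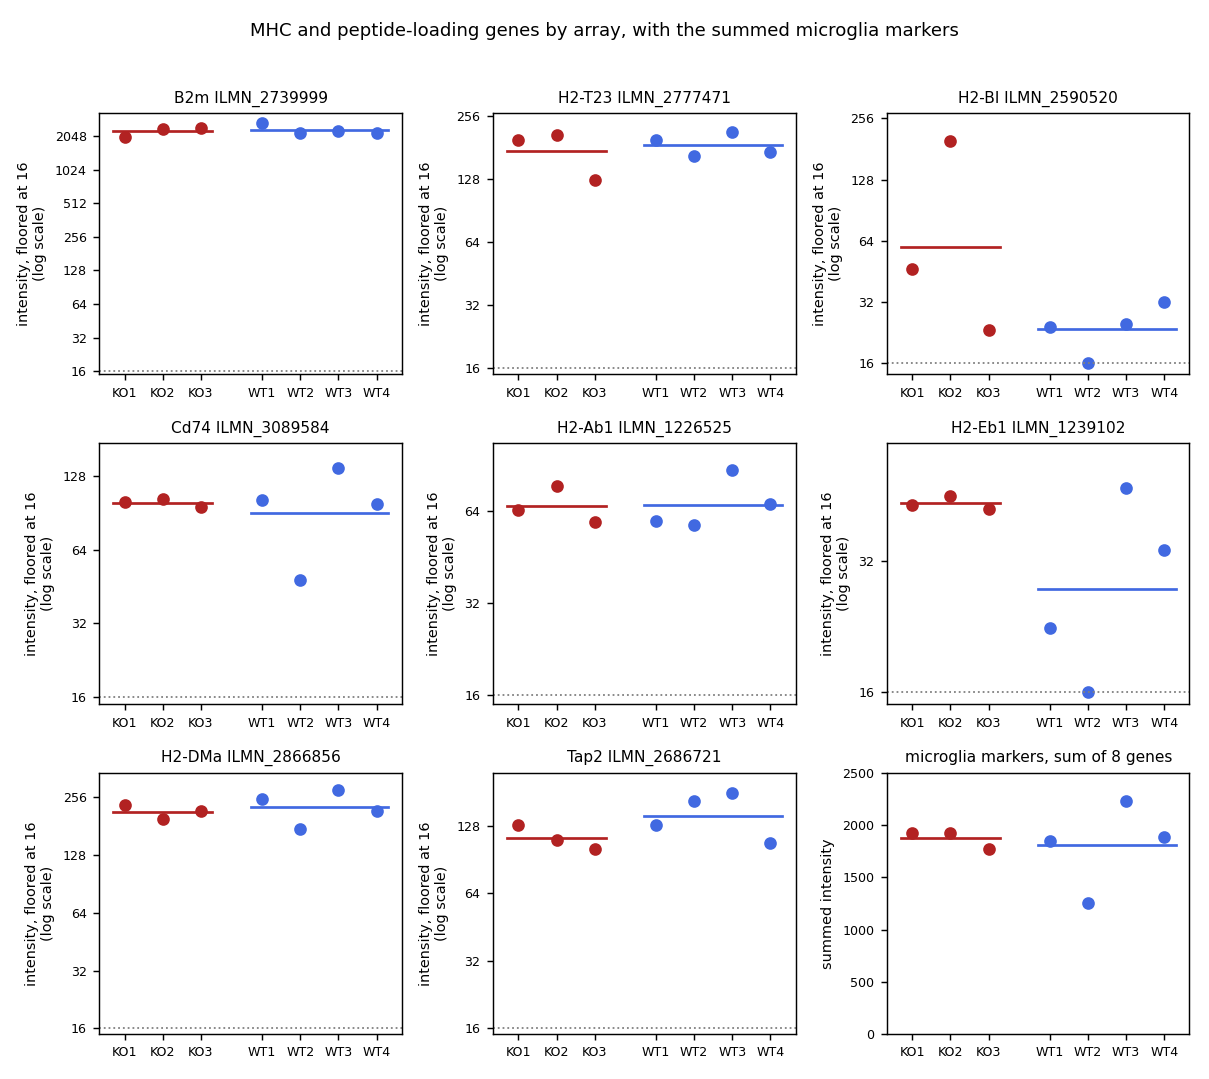
Intensity (log scale, floored at 16, dotted line) on each array for MHC and peptide-loading probes, with bars at the mean of the floored log2 values, and in the last panel the summed intensity of 8 microglia markers (linear scale from 0, bars at the mean). Knockout arrays KO1 to KO3 stand on the left and wild-type arrays WT1 to WT4 on the right. The groups overlap in every panel, and WT2 is low and WT3 high for Cd74 (48.3 and 138), H2-DMa (175 and 278) and the microglia sum (1253 and 2231).

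A class score was taken for each array as the mean, over the measured genes of a class, of how far the array's log2 value lay from that gene's 7-array mean. The STAT score was 0.12, 0.04 and 0.13 in knockout, against 0.04, -0.15, -0.08 and -0.10 in wild type. These groups did not overlap, though the lowest knockout value, 0.0440, and the highest wild-type value, 0.0410, nearly met. The STAT score leans on Stat2 and Stat4, which differed by 0.75 and 0.69. Stat3, Stat5a and Stat6 were lower in knockout, by -0.35, -0.02 and -0.20 at the probes used. The STAT group means differed by 0.17, while the median difference of the STAT genes was -0.02. The MHC class I score was 0.18, 0.36 and -0.15 in knockout, against 0.03, -0.42, 0.07 and -0.07 in wild type, and that of class II was 0.11, 0.15 and -0.12, against -0.09, -0.39, 0.32 and 0.02. Both had their lowest value on wild-type array 2 and overlapped. The class I score leans on H2-Bl, 1 of its 5 genes, which read 199 on knockout array 2 and 1.73 on wild-type array 2. Its group means differed by 0.22, while the median difference of the class I genes was -0.03. The IRF score was 0.08, 0.12 and -0.01 in knockout and -0.14, 0.14, -0.14 and -0.04 in wild type, with the highest value on array 2. The scores of the other classes overlapped too.

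**Figure D5:**
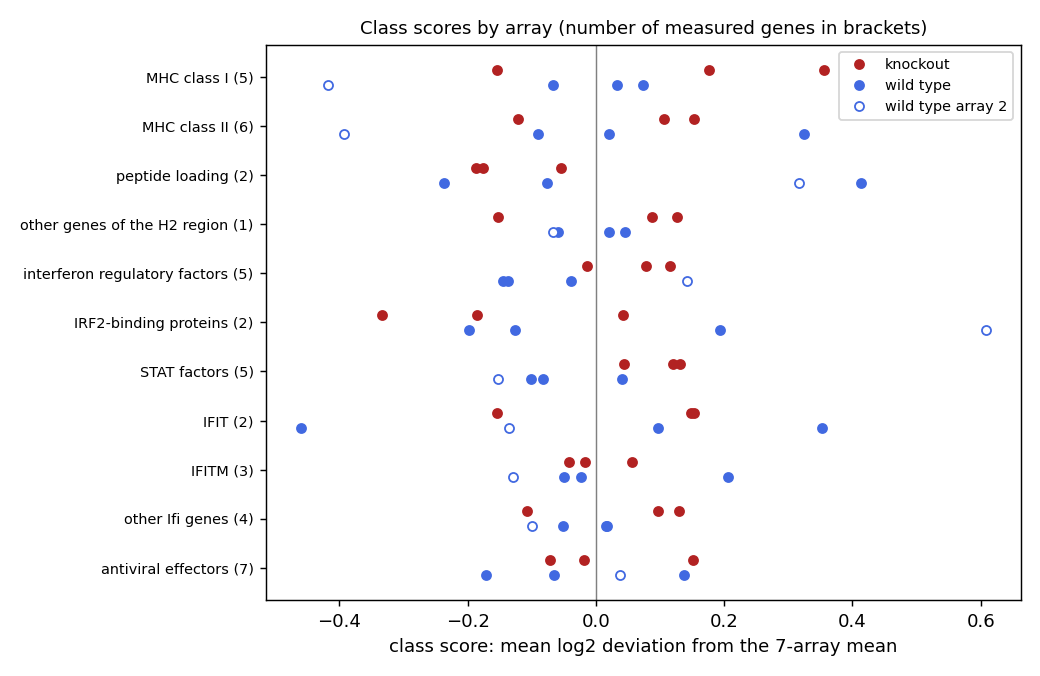
Class score (mean log2 deviation from the 7-array mean, horizontal axis) of each array for each class of members, with knockout and wild-type arrays as separate points (array WT2 as an open circle) and the number of measured genes in brackets. The STAT scores of the groups do not overlap, with 0.0440 as the lowest in knockout and 0.0410 as the highest in wild type, and the MHC class I scores run from -0.15 to 0.36 in knockout and from -0.42 to 0.07 in wild type. The STAT score leans on Stat2 and Stat4. The highest class I score, on KO2, leans on H2-Bl, which read 199 there.

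The rest of the pathway was read through 6 lists, with 115 genes on the array and 57 measured, of which 33 were higher and 24 lower in knockout. In all lists 0 genes passed the threshold, against the background of 0.0%, and at an unadjusted p under 0.05 there was 1 higher and 0 lower. The background shares at that p were 2.21% higher and 1.99% lower. Interferon receptors and JAK kinases had 7 of 9 genes measured, 4 higher and 3 lower, with a median of 0.01. Of 19 interferon genes, the ligands, 1 was measured. This was Ifna6, lower by 0.22 at a probe that read 26.9 to 44.8, with overlapping groups. Its other probe read at most 0.72 on any array, so whether the Ifna6 transcript was detected is uncertain. The SOCS, PIAS and phosphatase inhibitors of the pathway had 9 of 11 measured, 5 higher and 4 lower, with a median of 0.01. Nucleic acid sensing genes had 9 of 14 measured, 5 higher and 4 lower, with a median of 0.07.

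Of the other interferon-induced genes, 18 of 41 were measured and 14 of these were higher in knockout and 4 lower, with a median of 0.10, beside 53.1% higher and a median of 0.02 over all tested probes. Parp12, an antiviral ADP-ribosyltransferase, read 51.1, 53.4 and 50.7 in knockout, against 37.2, 20.2, 31.97 and 42.8 in wild type. The groups did not overlap, where the background share in that direction was 3.44%. The difference was 0.70 (SE 0.25, limma unadjusted p = 0.0215, adjusted p = 0.754). Antigen presentation genes outside the member list had 13 of 21 measured, with 5 higher and 8 lower and a median of -0.03.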

How the data were processed

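Total brain RNA of 3 knockout and 4 wild-type mice was hybridised to 7 arrays. The deposited values are normalized intensities on a linear scale. The authors used GenomeStudio 2011.1, per the submitters' processing notes. Background subtraction and normalization between arrays were read from the values, of which 22.3% were negative, and their method is not given in the sources. The 7 signal columns of another deposited table were not used, because their names match no sample label. The planned test assumed the normalized table and was kept.

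Values under 16 were set to 16, log2 of the deposited intensity was taken, and probes above 16 on at least 3 arrays were fitted by lmFit and eBayes of limma 3.58.1 under R 4.3.3 (group as sole term, two-sided, Benjamini-Hochberg over all 12833 tested probes, threshold 0.05). The method was tested on simulated data with independent noise, no floor and no outlying array. That setting is simpler than these data, so the test does not show how the method performs here. The number of arrays limits the precision. No pair of arrays shared more than 0.00389% of its values. Fold values are differences of floored means. Class medians and scores used each gene's brightest probe and carry no test.

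Members, classes and lists were chosen with earlier results of these data known. Members named with values were, per class, the 2 genes of highest mean intensity and up to 2 separated probes per direction with the smallest unadjusted p, or else the probe with the smallest one, and genes whose probes differed in sign. Other members were named to complete a class, after their values were seen. Listed pathway and marker genes were named at an unadjusted p under 0.05, and a few others after their values were seen. Symbols are those of the platform annotation, and all 145 member probes matched the RefSeq gene table of GRCm38.p6, used for names, neighbours and promoters. Alternatives covered the floor, the filter, quantile normalization, array weights, a variance trend, a replicate block and left-out arrays.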

Additional observations from a re-analysis of the deposited data

Results flagged for a closer look

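The 4 wild-type arrays were searched for a value apart from the other 3 in 50 groups of log2 values, namely the named member probes and the class scores. There were 3 such values, and chance flags about 1 in 20 groups. At the dimmer H2-T23 probe wild-type array 2 read 32.2, below the other wild-type arrays. Ifi27 at its brighter probe read 889 on wild-type array 2, again below the others. Usp18 at its brighter probe read 72.0 on wild-type array 1, above the others. The 3 knockout arrays are too few for this search.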

How the results depend on the processing

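Across 16 alternative settings the named members gave 588 values, of which 538 kept their direction and their side of the threshold, 1 passed it (Stat4 with array weights) and 49 changed sign. Of 204 class medians 17 moved by more than the spread between replicates. No probe passed in any setting but array weights, where 28 did, 1 of them a member, and the cause was not tested. Leaving out 1 array at a time kept 0 members and 0 of all probes past the threshold, while the unadjusted count of all probes ran from 157 without knockout array 2 to 1626 without wild-type array 4, against 539 with all arrays. At a floor of 32 the antiviral median was 0.0. At a floor of 64 it was 0.0, that of the other Ifi genes 0.0, Oasl2 -0.084 and Usp18 -0.013. With no filter on dim probes both medians were 0.0. Above the floor on all 7 arrays the STAT median was 0.20. With array weights the median was 0.25 for IRF, -0.22 for IFIT and -0.078 for antiviral genes, and the difference was -0.24 at the dimmer H2-T23 probe, 0.031 for Tapbp, 0.085 for Ifitm10, -0.044 for Ifitm3, 0.041 and -0.045 at Stat3 probes ILMN_2698046 and ILMN_3096144, 0.051 at the brighter Irf1 probe, -0.29 for Oasl2, -0.020 for Cd74 and -0.20 for Usp18. Without wild-type arrays 2 and 3 the median was 0.017 for peptide loading, 0.13 for STAT and -0.036 for antiviral genes, and the difference was -0.18 at the dimmer H2-T23 probe, 0.092 for Tapbp, 0.32, 0.37 and -0.0066 at Stat3 probes ILMN_2589790, ILMN_2698046 and ILMN_3096144, -0.036 for Oasl2, -0.15 for Ifit2, -0.011 for Cd74, 0.074 for Irf2bpl and -0.059 for Usp18. Leaving out 1 array in turn, the STAT median ran from -0.0785 to 0.12, the antiviral median from 0.010 to 0.20 and that of the other Ifi genes from 0.0096 to 0.25. The members whose sign turned were B2m (-0.082 to 0.052), Cd74 (-0.16 to 0.34), H2-DMa (-0.20 to 0.0195), H2-Ke6 (-0.017 to 0.12), H2-T23 (-0.17 to 0.21 and -0.23 to 0.12), Ifitm10 (-0.15 to 0.0059), Ifitm2 (-0.067 to 0.18), Ifitm3 (-0.038 to 0.11), Irf1 (-0.0745 to 0.31 and -0.16 to 0.039), Irf2 (-0.069 to 0.25), Oasl2 (-0.16 to 0.18) and Stat3 (-0.52 to 0.066, -0.68 to 0.12 and -0.10 to 0.37). Numbered samples of the groups did not deviate together, with correlations of 0.08, -0.13 and -0.04, and the main fit did not pair them. Whether the numbers mark a pairing cannot be told from these values. With the replicate number as a block 0 probes passed, 7 members and 1535 of all probes had an unadjusted p under 0.05, Ifitm3 was -0.0031 and Oasl2 -0.13. Signal over background limits the dim members, as for Stat4, whose difference was 0.011 at a floor of 32.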

Other observations

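Over the 12 lists of cell type markers 24 measured genes were higher and 22 lower in knockout, and 0 passed the threshold (limma, lowest adjusted p 0.754). At an unadjusted p under 0.05 there were 2 higher, S100a8 and S100a9 of neutrophils, and 4 lower, Aif1 and Slc17a7 as given above and Folr1 and Clic6 of the choroid plexus. The background shares over all tested probes were 2.21% higher and 1.99% lower. S100a8, a calcium-binding protein gene, read 275, 101 and 199 in knockout, against 101, 87.6, 96.6 and 101 in wild type, so knockout array 2 barely exceeded the wild-type arrays. S100a9, its partner, read 72.8, 34.6 and 55.4 in knockout, against 19.9, 23.3, 18.2 and 24.2 in wild type. The other measured neutrophil markers included Ltf, which differed by 0.0023, and the list sums were 174 to 442 in knockout and 153 to 169 in wild type. Folr1, a folate receptor gene, read 22.6, 15.2 and 16.4 in knockout, against 32.8, 52.3, 73.8 and 35.4 in wild type, without overlap. Clic6, a chloride channel gene, read 394, 356 and 365 in knockout, against 474, 454, 455 and 449 in wild type, also without overlap. The other measured choroid plexus markers, Ttr and Kl, differed by 0.17 and -0.05 with overlapping groups. Sums over the choroid plexus list overlapped too, at 8724 to 10644 in knockout and 6822 to 11046 in wild type. By sign, all 5 measured endothelial markers were higher in knockout, with overlapping sums of 1957 to 2258 in knockout and 1853 to 2003 in wild type, and all 4 oligodendrocyte and all 3 erythroid markers were lower. The erythroid median was -1.07, and the erythroid markers read highest on wild-type array 2.

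Among the pathway genes outside the members, groups were also separated for Plscr1, an interferon-induced phospholipid scramblase, for Myd88, the adaptor of Toll-like receptors, and for 1 of 3 probes of Shisa5. These were chosen for mention after their values were seen. By brightest probe, 2 of the 18 measured other interferon-induced genes were separated higher, Parp12 and Plscr1, and 0 lower. Of the 9 measured nucleic acid sensing genes 0 were separated higher and 1, Myd88, lower. The remaining lists had 0 in either direction. The background shares for separation over all tested probes were 3.44% higher and 3.94% lower. Plscr1 read 53.3, 52.7 and 58.6 in knockout, against 45.7, 46.0, 51.8 and 44.6 in wild type, a difference of 0.22 (SE 0.14). Its dimmer probe was separated in the same direction, with a difference of 0.43 (SE 0.15). Myd88 read 272, 280.1 and 286 in knockout, against 289, 396, 295 and 305 in wild type, a difference of -0.19 (SE 0.16), and wild-type array 2 was far above the rest. Shisa5 at its dimmest probe read 46.2, 49.0 and 45.4 in knockout, against 50.4, 121, 65.5 and 50.9 in wild type, a difference of -0.52 (SE 0.30), and its brighter probes gave -0.09 and 0.02 with overlapping groups.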
